A study of Mus musculus with 109 samples.

Results

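The chromosome 17 bait B76 of a mouse 4C-seq series was described from the 4 libraries, of 109 in all, whose reads lay beside it. 4C-seq (circular chromosome conformation capture with sequencing) records the HindIII sites that became joined to a single fragment of interest, the bait. The libraries were selected on the percent of reads within 100 kb of the bait, as the 4 highest of the 39 columns titled Ch16, Ch17 or 1.5hrs, so that percent is a description and is not tested. It was 8.06%, 6.86%, 10.1% and 8.49% in B76 libraries 1 to 4. The next column, a library of the second chromosome 17 bait (B50), had 0.109%. The other B50 libraries followed, and outside the libraries of these 2 baits none of the 39 exceeded 0.00940%. Among the 70 columns with other titles the highest was 0.0478%.

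The titles did not name the bait that was read. The 4 libraries were titled for the chromosome 16 baits B30 (1 h after mitosis), B41 (30 min, and in another column 4 h) and B46 (3 h), while the 4 columns titled Ch17.B76 held at most 0.00195% of their reads near B76. Of the 39 columns, 35 were read at a bait other than the one in the title and 4 at the titled bait. Because the bait in a title could not be relied on, the hour in it was not used, and the 4 libraries are called by number only. The libraries set against them are the 4 taken by the same rule at B50, which lies in the kinesin gene Kif6 on the same chromosome. They too carried titles of chromosome 16 baits: B30 (1.5 h), B41 (1 h) and B46 (30 min, and in another column 4 h). All libraries came from C127 cells, a line from a mouse mammary tumour, which the labels describe as arrested at mitosis with nocodazole for 4 h and released, and were made by cutting with HindIII, ligating and then cutting with DpnII. Every one was titled as biological replicate 1, and since the titles did not name the bait that was read, p-values measure only the spread between these libraries.

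In a 4C experiment contacts fall with distance from the bait, and they fall more steeply at the edges of topologically associating domains, the stretches of up to a few megabases within which sites meet more often than across their borders. Beyond these domains, active gene-rich and silent gene-poor chromatin each tend to meet their own kind. Gene deserts are long stretches with few or no genes, and they usually replicate late.

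B76 stood in such a desert. Its primer, given as a bar code in the labels of the columns titled Ch17.B76, matched the plus strand of chr17:76305544-76305564 (mm9) and ended in the first 4 bases of a HindIII site at 76305561, between genes. Upstream, the nearest gene was Fam98a, 354275 bp away. Further upstream lay Rasgrp3, an activator of Ras proteins (377178 bp), and Ltbp1, which binds latent TGF-beta (513709 bp). Downstream, the only annotated protein-coding gene within 1 Mb was the short predicted gene Gm16391 (378194 bp), and the next, Crim1, a membrane protein that binds bone morphogenetic proteins, began 2294027 bp away. The 500-kb bin of the bait had 39.4% GC and 0 protein-coding gene starts, against 45.4% GC and 3 starts for the bin of B50 and 42.7% GC over all of chromosome 17. The primer and the 150 bases around its site (chr17:76305501-76305650) are shown first because they identify what was read. The other sequences are the fragment ends, from a HindIII site to the nearest DpnII site, of the 2 sites near the bait with most reads in all 4 libraries (chr17:76309505-76309555, 3989 bp downstream, and chr17:76286256-76286320, 19246 bp upstream), of a near site with 0 reads (chr17:76235596-76235611, 69965 bp upstream), and of the most read site over 2 Mb away (chr17:78555752-78555821, 2250255 bp downstream). All are plus strand of mm9, and capitals mark the HindIII site, of which the primer holds the first 4 bases, and in the fragment ends the DpnII site as well.
B76 primer: agatggcaaaccacattAAGC
B76 site: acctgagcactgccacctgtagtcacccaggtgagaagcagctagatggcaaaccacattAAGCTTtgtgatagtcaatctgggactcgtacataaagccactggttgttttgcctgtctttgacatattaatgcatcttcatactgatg
Most read, downstream: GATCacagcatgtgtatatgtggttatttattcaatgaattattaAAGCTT
Most read, upstream: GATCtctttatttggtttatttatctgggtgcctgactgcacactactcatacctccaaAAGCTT
Not read: AAGCTTgttattGATC
Most read beyond 2 Mb: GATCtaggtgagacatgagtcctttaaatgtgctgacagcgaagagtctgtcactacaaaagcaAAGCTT

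The libraries were unequal in depth. B76 libraries 1 to 4 held 203016, 185000, 1061114 and 914363 reads on 16530, 25949, 21597 and 28821 captured sites (sites with 1 read or more), and the B50 libraries held 283213 to 1598251 reads. Since no molecular identifiers were used, a captured site counts a ligation once, whereas PCR can make many reads of it. A captured trans site (one on another chromosome) had 4.73, 3.24, 19.1 and 13.6 reads on average. The 4 libraries were not copies of each other: any 2 shared 2.03% to 4.64% of the trans sites of the smaller one, against 1.45% to 6.14% for pairs of a B76 and a B50 library. More than 2 Mb from the bait on chromosome 17, 37.9%, 39.3%, 41.3% and 42.3% of HindIII sites were captured. There, with both baits' surroundings left out, pairs of B76 libraries shared 70.04% to 77.7% and pairs with a B50 library 69.2% to 79.4%.

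Most reads stayed on chromosome 17, and the 4 libraries differed in how far along it they reached. Reads on chromosome 17 made up 87.6%, 74.9%, 83.1% and 75.8%. Reads 100 kb to 2 Mb from the bait made up 16.03%, 14.6%, 25.3% and 26.2%. Reads more than 10 Mb away made up 34.4%, 30.7%, 27.1% and 22.3%, and those 2 to 10 Mb away 29.1%, 22.8%, 20.5% and 18.7%. Libraries 3 and 4 thus held more reads within 2 Mb and fewer beyond than libraries 1 and 2, and they are also the 2 libraries with most reads. The part of depth in this was not tested. B50 libraries 1 to 4 parted in the same way. They held 16.7%, 15.4%, 20.7% and 19.7% at 100 kb to 2 Mb and 24.3%, 17.4%, 10.1% and 9.62% at 2 to 10 Mb.

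Close to the bait the 4 libraries read the same sites. Of the 56 HindIII sites within 100 kb, the bait site left out, 42 had reads in all 4 libraries and 4 in none. The site 3989 bp downstream took 1.57%, 1.17%, 1.52% and 1.48% of all reads and the site 19246 bp upstream 0.904%, 0.766%, 1.13% and 0.869%, which made them the 2 most read in every library. Of the 4 sites with 0 reads, 3 also had 0 reads in the 101 libraries of the other baits. The one printed above lay 12 bp from a DpnII site on one side and 629 bp on the other, and was read in 1 of those 101. Over all of chromosome 17, 29.3% of sites with no DpnII site in either neighbouring fragment were read in at least 1 of the 4 libraries, and 72.4% of those whose longer end was 101 to 500 bp, so whether a site was read also went with its fragment ends. The 5 100-kb bins with the highest median share within 2 Mb included 1 that was not beside the bait, 1.1 to 1.2 Mb downstream in the desert, with 0.454%, 0.389%, 1.41% and 1.50% of reads. Its share was about 3 times as high in libraries 3 and 4 as in libraries 1 and 2, while the first 100 kb downstream, with 4.86%, 3.88%, 5.69% and 4.83%, showed no such gap.

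**Figure D1:**
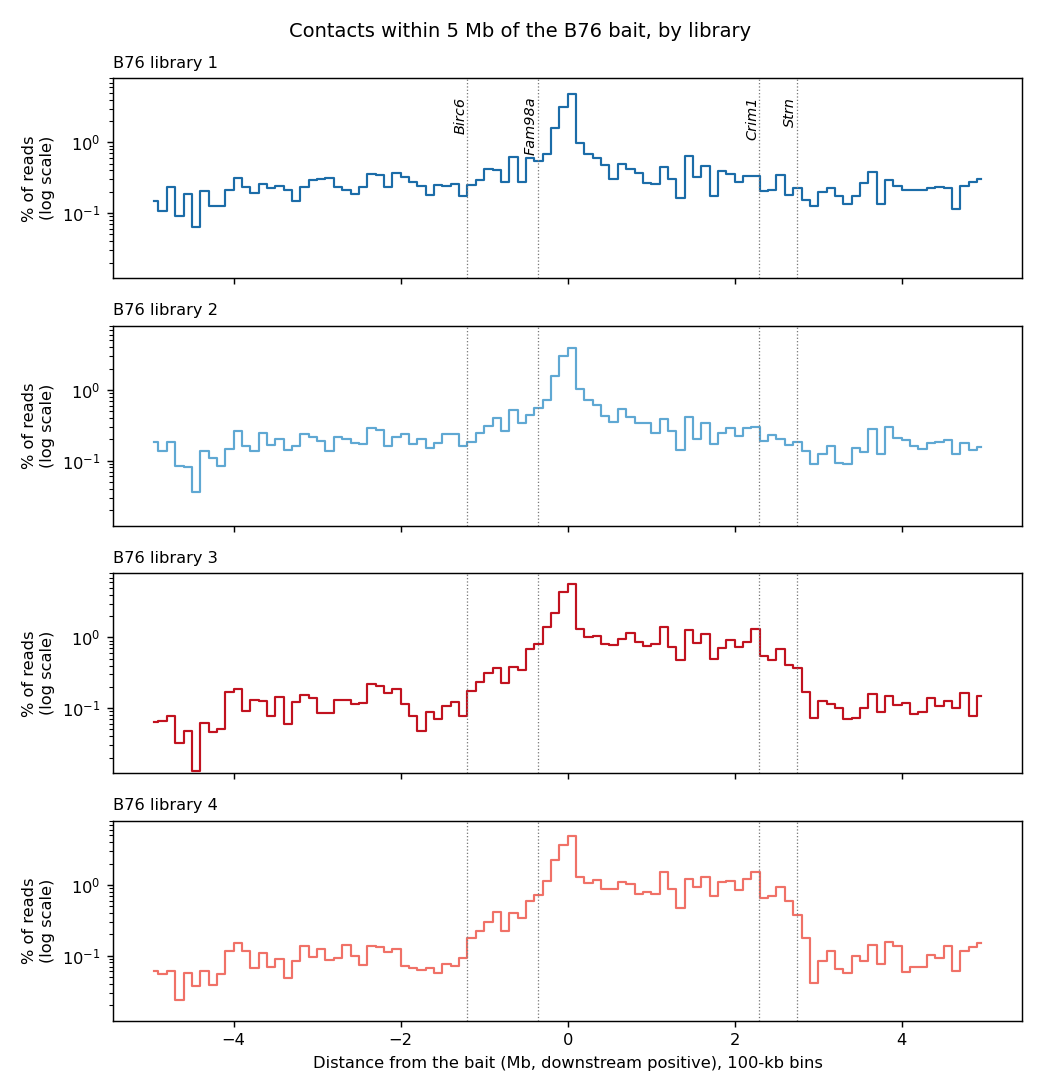
Percent of reads (log axis) in 100-kb bins against distance from the B76 bait in Mb, 1 panel per library; dotted lines mark the ends nearest the bait of Birc6, Fam98a, Crim1 and Strn. Libraries 3 and 4 show a flat block from the bait to about 2.7 Mb downstream followed by a drop, and a drop near 1.2 Mb upstream, while libraries 1 and 2 fall off almost evenly on both sides.

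In libraries 3 and 4 the bait met the whole desert on its downstream side, up to Crim1, almost evenly, and contacts then dropped over Vit and Strn. The windows that follow were chosen after this profile was seen and have no test. From 0.1 Mb downstream of the bait to the start of Crim1, a stretch with 1 protein-coding gene, reads per Mb were 4.12%, 3.77%, 9.26% and 10.2%. The window of the same length and distance upstream, with 15 protein-coding genes, had 4.04%, 3.54%, 3.82% and 3.53%. In total the upstream window thus differed little among the libraries, but its parts differed in opposite directions. From 0.1 to 0.2 Mb upstream lay 1.61%, 1.58%, 2.22% and 2.26% of reads, and from 1.2 to 2.2 Mb 2.56%, 1.94%, 1.05% and 0.799%. The desert held 1.02, 1.06, 2.42 and 2.89 times as many reads per Mb as the whole upstream window. The desert had 741 HindIII sites and the upstream window 640. Libraries 3 and 4 also had the most reads per captured far site on chromosome 17 (12.5, 9.19, 44.8 and 32.5 in libraries 1 to 4), whose part in the block was not tested.

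The downstream edge of libraries 3 and 4 lay past Crim1 and Fez2, over the stretch from Vit to Strn. Reads per Mb from 2.2 to 2.7 Mb downstream, which holds Crim1, Fez2 (a relative of a worm axon guidance gene) and most of Vit (a matrix protein gene), were 2.57%, 2.17%, 6.84% and 8.76%. From 2.8 to 3.3 Mb, the stretch of Eif2ak2, the kinase that stops translation on double-stranded RNA, and Prkd3, a protein kinase D gene, they were 1.75%, 1.21%, 1.16% and 0.965%. The ratio of the first window to the second was 1.47, 1.79, 5.87 and 9.08. It was above 1 in all 4 libraries and several times larger in libraries 3 and 4. In libraries 1 and 2 this was a dip and not a lasting step. They held 1.29% and 1.08% of reads from 2.2 to 2.7 Mb, and again 1.31% and 1.05% from 3.5 to 4 Mb. Libraries 3 and 4 held 3.42% and 4.38%, then 0.603% and 0.588%. The ratio was not corrected for distance or for the number of HindIII sites, 163 and 148 in the 2 windows. Within the Crim1 gene body itself, reads per Mb were 2.34%, 2.23%, 5.43% and 7.07%. Captured sites showed the same block less strongly: 69.4%, 65.9%, 82.4% and 85.3% of the HindIII sites from 2 to 2.5 Mb downstream had reads, against 61.8%, 60.6%, 63.0% and 60% from 3 to 3.5 Mb. Why the block was weaker in captured sites was not tested.

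Upstream, reads per Mb were lower beyond 1.2 Mb than nearer the bait, and more so in libraries 3 and 4. Reads per Mb from 0.2 to 1.2 Mb upstream, over Fam98a, Rasgrp3, Ltbp1 and Ttc27, were 4.35%, 3.98%, 4.92% and 4.55%. From 1.2 to 2.2 Mb, over Birc6, an inhibitor of apoptosis, Spast, which severs microtubules, and Memo1, they were 2.56%, 1.94%, 1.05% and 0.799%. The ratio was 1.70, 2.05, 4.68 and 5.69. It was not corrected for the fall with distance, and its windows are wider and nearer than the downstream ones. Its size therefore cannot be ranked against the downstream ratio, and in libraries 1 and 2 it does not show an edge. At Ltbp1 itself the level hardly differed among libraries (3.97%, 3.76%, 3.16% and 3.37% per Mb over the gene body), and over Fam98a with 50 kb on each side it was 6.27%, 6.10%, 8.51% and 7.78% per Mb. Taken likewise, Ttc27 had 2.49%, 1.98%, 1.81% and 1.83% per Mb, and Birc6 2.09%, 1.92%, 1.05% and 0.899%, in stretches that partly overlap.

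**Figure D2:**
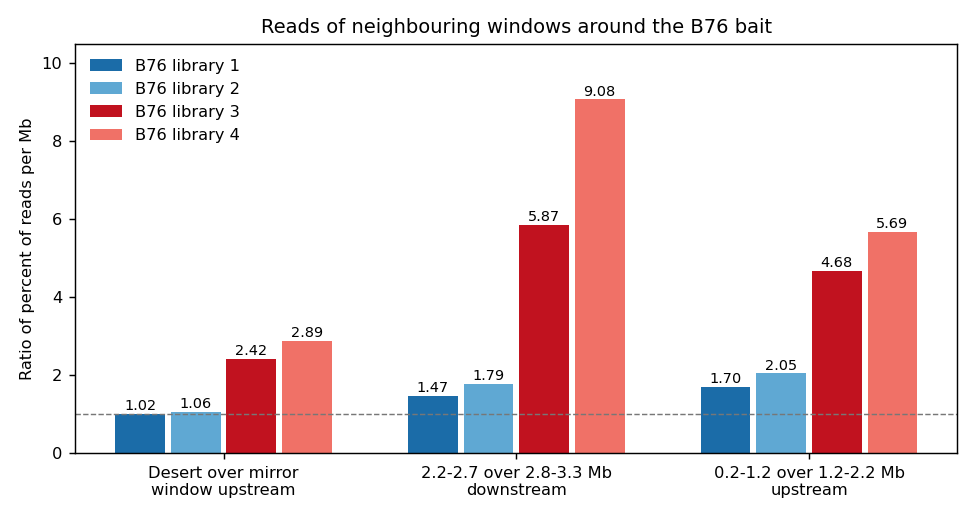
Ratio of the percent of reads per Mb between neighbouring windows around the B76 bait, 1 bar per library; the dashed line marks equal levels. The downstream windows before and after the end of Vit had ratios of 1.47, 1.79, 5.87 and 9.08 in libraries 1 to 4. No ratio was corrected for distance.

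The same was seen in the fall of contacts with distance. Between 0.1 and 1 Mb downstream the slope of log10 reads per readable site (one read in any of the 101 libraries of other baits) on log10 distance was -0.51, -0.46, -0.11 and -0.14. Between 1 and 10 Mb downstream it was -0.46, -0.47, -1.41 and -1.62. Upstream the order was turned, with -0.80, -0.85, -1.14 and -1.12 up to 1 Mb and -0.40, -0.41, -0.33 and -0.40 beyond. Libraries 1 and 2 therefore fell at nearly one rate downstream, and libraries 3 and 4 stayed flat and then fell steeply. Of the reads 20 kb to 2 Mb from the bait, 51.7%, 51.5%, 66.7% and 69.5% lay downstream (59.8% ± 9.62, SD, n = 4), and of the captured sites 53.2%, 52.2%, 55.3% and 55.9%. Leaving out 5 kb or 50 kb around the bait gave means of 57.8% and 61.4%.

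Most of the sites beyond 2 Mb with most reads in all 4 libraries lay in the stretch of the same block. They were ranked by read share with no correction for distance, which favours sites just past 2 Mb. Of the 10 sites with the highest lowest share, 9 were downstream, between 2.04 and 2.59 Mb from the bait, and 1 of these was in Crim1. The most read, printed above, had 70, 115, 1475 and 1641 reads and was read in 5 of the 101 libraries of other baits. The only upstream one, 2.12 Mb away, had 70, 85, 396 and 236 reads, which is 0.0345%, 0.0459%, 0.0373% and 0.0258% of each library, with no gap between libraries. Of 27336 HindIII sites of chromosome 17 beyond 2 Mb, 5382 were read in 4 of 4 libraries and 10745 in none.

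Further along chromosome 17 the profile was taken as the log2 ratio of observed to expected captured sites per 500-kb bin, the expectation coming from the fall with distance in the same library, after each library was thinned to 10211 captured sites. Of 172 bins more than 2 Mb away, 29 were above 0 in all 4 libraries and 38 below 0 (25 and 39 for reads). The profiles of libraries 3 and 4 correlated best over the bins (Pearson r 0.52, and 0.65 for reads), libraries 1 and 2 hardly (0.01, and -0.09 for reads), and the other pairs at 0.18 to 0.33; the bins of a pair share the distance correction and the read depth, and bins are not replicates. In the bin of Crim1 the log2 ratio was -0.12, -0.07, 0.13 and 0.22 for captured sites, and -0.04, 0.13, 2.21 and 2.76 for reads. The means were 0.04 ± 0.16 for sites and 1.27 ± 1.43 for reads (SD, n = 4), and the units parted in libraries 3 and 4 only.

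Bins were named only where all 4 libraries had the same sign, and at least 1 Mb apart, so their agreement in sign was set by the choice. The 10 such bins with most contact for their distance all lay upstream, 23.6 to 45.1 Mb from the bait. The highest was 31000001 to 31500000, with the cholesterol exporter Abcg1, Umodl1 and the sugar-phosphate transporter Slc37a1, at 0.29, 0.26, 0.80 and 0.67 (0.50 ± 0.27, SD, n = 4). The second was 36500001 to 37000000, at the edge of the H2 histocompatibility region, with Trim26 and H2-M10 genes, which are read in vomeronasal neurons, at 0.23, 0.66, 0.62 and 0.40. The third, 41000001 to 41500000, held Mut, which encodes methylmalonyl-CoA mutase, and the centromere gene Cenpq (0.37, 0.30, 0.29 and 0.24), and the fourth, 40000001 to 40500000, the sperm genes Crisp3, Crisp1 and Pgk2 (0.40, 0.34, 0.23 and 0.18). All of these 4 bins were above 0 in every library for reads as well.

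The next 3 bins lay within 2 Mb of B50. They were 48000001 to 48500000 with the transcription factor gene Foxp4 (0.26 ± 0.08), 49000001 to 49500000 with Lrfn2, a synaptic adhesion gene (0.24 ± 0.05), and 50000001 to 50500000 with Rftn1, one end of Kif6 and the germ cell gene Dazl (0.24 ± 0.08, SD, n = 4 each). The last 3 of the 10 were the bins of Cyp39a1, Gpr116 and Rcan2 (0.20 ± 0.10), of 3110082D06Rik (0.18 ± 0.05) and of the potassium channel gene Kcnh8 (0.16 ± 0.05). For reads, 7 of the 10 were above 0 in all 4 libraries, the exceptions being those of Rftn1, Cyp39a1 and Kcnh8. Their GC content ran from 37.1% to 48.8%.

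The 5 lowest bins, taken by the same rule, lay 41.6 to 73.1 Mb away and were less even. The bin of the zinc finger genes Zfp943 and Zfp942 (22000001 to 22500000) had -0.60, -1.29, -0.83 and -0.28, and that of Tulp4 (6000001 to 6500000) -0.14, -1.11, -0.03 and -1.21. The bin 34500001 to 35000000, in the H2 region, with Tnxb, an extracellular matrix gene, and Notch4, a receptor gene, had -0.89, -0.46, -0.41 and -0.34, and was the only 1 of the 5 below 0 for reads in all 4. The bins of Tiam2 and Scaf8 (-0.34 ± 0.23) and of the vomeronasal receptor genes Vmn2r95 and Vmn2r96 (-0.31 ± 0.11, SD, n = 4) completed the list. Over the 8 bins of the H2 region from 34000001 to 38000000 the mean was -0.17, 0.01, -0.08 and -0.02, and on reads it was -0.40, -0.06, -0.26 and -0.22, below 0 in all 4 libraries. The region held both a high and a low bin.

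**Figure D3:**
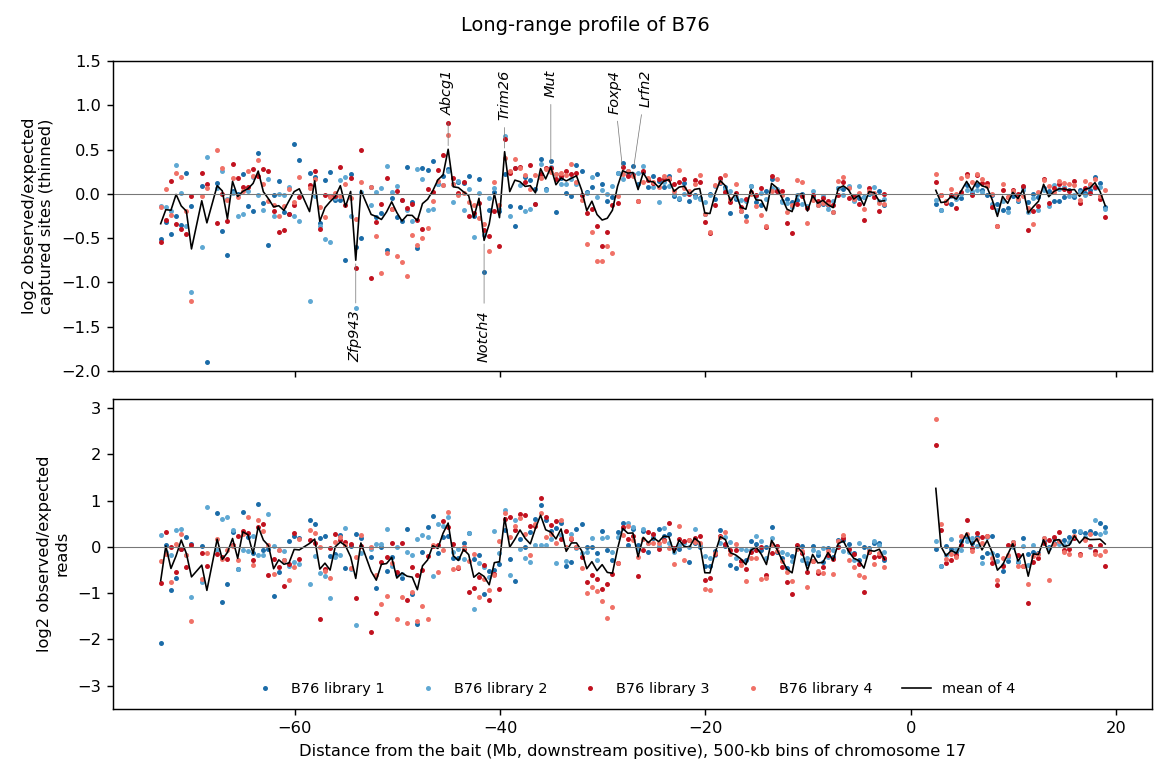
Log2 observed over expected captured sites (top, libraries thinned alike) and reads (bottom) per 500-kb bin of chromosome 17 against distance from the B76 bait; points are the 4 libraries and the black line is their mean. The Abcg1 bin averaged 0.50, the Zfp943 bin -0.75, and the Crim1 bin beside the bait was high for reads in libraries 3 and 4 (2.21 and 2.76) and near 0 in libraries 1 and 2.

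A stretch of bins from 44500001 to 47500000 was low in libraries 3 and 4 and near 0 or above in libraries 1 and 2. It was chosen after the profile was seen and has no test. The bin 46000001 to 46500000, with Xpo5, an exporter of microRNA precursors, and the DNA polymerase gene Polh, had 0.12, 0.05, -0.58 and -0.76. The bin 45500001 to 46000000, with the splicing gene Cdc5l, had 0.22, -0.04, -0.36 and -0.75. Among the 31 genes listed for description whatever their value, those over 2 Mb away fell in 18 bins, of which 0 were above 0 and 7 below 0 in all 4 libraries. Lama1, a laminin gene (-0.12 ± 0.04), and Ptprm, a receptor phosphatase gene (-0.11 ± 0.02), were evenly below 0 (SD, n = 4). Kif6, at 0.11, 0.24, -0.08 and -0.08, and H2-K1, at 0.16, 0.02, -0.11 and -0.27, went both ways. For Kif6 this is the bin 49500001 to 50000000, which holds most of the gene.

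How the profile of B76 followed base composition was set against B50, to ask whether 2 baits of one chromosome in regions of unlike GC content met the same partners. The Spearman correlation with GC content over the bins was -0.06, 0.03, -0.28 and -0.35 in B76 libraries 1 to 4, and -0.17, 0.04, 0.60 and 0.59 in B50 libraries 1 to 4. The correlation with the number of protein-coding genes was -0.07, -0.03, -0.15 and -0.25 for B76 and -0.27, -0.12, 0.47 and 0.46 for B50. The groups overlapped in both. The difference in mean, B76 minus B50, was -0.43 for GC (two-sided exact permutation test, 4 against 4 libraries, p = 0.114) and -0.26 for genes (exact p = 0.343), where this design allows no p below 0.0286. Counting all HindIII sites of a bin in place of the readable ones, a setting added after the data were seen, moved the GC difference to -0.11 (exact p = 0.429) and turned the sign of the mean B76 correlation: 0.29 ± 0.18 with GC in that setting, against -0.16 ± 0.18 with readable sites, and 0.04 ± 0.10 with genes, against -0.12 ± 0.09 (SD, n = 4 each). Whether B76 contacts went with low or high GC thus depended on this choice. In both baits the 2 libraries with most reads had the values farthest from 0, and the part of depth was not tested.

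Read by read, the far contacts of the 2 baits were split differently over chromosome 17. With each library's fall with distance as an offset, 17 of 163 tested bins beyond 2 Mb of both baits differed (10.4%, edgeR's quasi-likelihood test, Benjamini-Hochberg adjusted p of 0.05 or less), 4 higher for B76 (2.45%) and 13 lower (7.98%). The split between directions varied: 14 higher and 17 lower with DESeq2, 10 and 10 with 1-Mb bins, 11 and 19 without B50 library 1. The 4 higher bins had 37.1% to 42.7% GC and 0 to 3 gene starts, and the 13 lower ones had 41.5% to 49.6% GC and 1 to 47 gene starts. All tested bins had a median of 42.7% GC and 3 gene starts, and a median log2 fold change of -0.08.

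Of the 4 bins higher for B76, 3 are described here. One, 11500001 to 12000000, lies within Park2, the gene of the ubiquitin ligase parkin, 64.6 Mb from B76. Its log2 observed over expected reads were 0.21, -0.09, 0.30 and 0.65 for B76, against -0.45, -1.12, -0.99 and -0.42 for B50 (log2 fold change 1.01, SE 0.28, edgeR adjusted p = 0.0297). A pair of neighbouring bins spans 39500001 to 40500000, 36.1 to 36.6 Mb from B76, with 0 genes in its first bin and Crisp3, Crisp1 and Pgk2 in its second. The second had 0.91, 0.04, 1.07 and 0.73 for B76, against -0.27, -0.05, -0.34 and -0.24 for B50 (0.96, SE 0.27, adjusted p = 0.0300), and the first a log2 fold change of 0.92 (SE 0.27, adjusted p = 0.0434). Bins were named only where the baits did not overlap. B76 library 2 was the lowest of its group in each of the 3. These calls rested on few libraries: 0 of the 3 passed without B76 library 3, without B76 library 4 or without B50 library 3, and on captured sites 1 of the 3, that within Park2, passed.

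Of the 13 bins lower for B76, 7 lay in the distal part of the chromosome past the bait, as did 34 of the 163 tested, although B76 is much nearer to them than B50 is, with 8.44 Mb against 34.8 Mb for the bin of Thada. That bin, 84500001 to 85000000, with Thada, Plekhh2 and the mRNA decay gene Zfp36l2, had -0.17, -0.31, -0.83 and -0.71 for B76, against 0.75, 0.79, 0.73 and 0.75 for B50 (log2 fold change -1.23, SE 0.20, edgeR adjusted p = 0.00255). The bin of Lrpprc, a mitochondrial RNA-binding protein gene, and Ppm1b beside it had -0.52, -0.39, -0.41 and -0.25, against 0.37, 0.58, 0.78 and 0.78 for B50 (-1.03, SE 0.19, adjusted p = 0.00314). The bin of Prkce, a protein kinase C gene, had -0.32, -0.30, -0.18 and -0.42, against 0.69, 0.98, 0.48 and 0.76 for B50 (-1.04, SE 0.19, adjusted p = 0.00314). All 3 passed under each of the 12 alternatives with the same bins, leaving out each library included, with adjusted p up to 0.0218. The distance curve of a library averages both sides of its bait, so a side above the curve sets the other below it. At similar distances from B50, the bin of Socs5 downstream averaged 0.67 for B50 and that within Park2 upstream -0.74. Lower calls on the distal side and higher calls upstream are thus not independent, and the part of the curve in them was not tested.

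The other distal bins were those of Ttc7 and Socs5, a suppressor of cytokine signalling (-1.30, SE 0.28), of Mta3, a subunit of the NuRD complex (-0.83, SE 0.23), of Atl2 and Hnrpll (-0.67, SE 0.12) and of Cdc42ep3 (-0.62, SE 0.16). These 4 too were taken from the called bins without overlap between the groups. The last 2 lie only 3.44 and 3.94 Mb from B76, past the edge at Vit, where the distance curve averages a high and a low side. Outside the distal part, the 3 bins named by the rule were gene-rich or upstream: 56000001 to 56500000 with the histone demethylase gene Kdm4b and the chromatin assembly gene Chaf1a (27 gene starts, -1.02, SE 0.26), 35000001 to 35500000 with Msh5, C2 and other H2 region genes (47 gene starts, -0.82, SE 0.25), and 71000001 to 71500000 with Dlgap1 and Myom1 (-0.82, SE 0.18). These 7 calls varied in stability: adjusted p stayed under the threshold in 3 of 12 alternatives for the bin of Msh5, 8 of 12 for those of Kdm4b and Mta3, 7 of 11 for that of Cdc42ep3, 11 of 12 for that of Socs5, 10 of 11 for that of Myom1 and 11 of 11 for that of Atl2. The bins named here were taken from called bins with no overlap between baits, up to 10 in each direction by fold change. Their lack of overlap was thus set by the choice. Of all 163 tested bins, 36 had no overlap, among them 4 of the 4 called higher and 11 of the 13 called lower. Of the 13 lower bins, 10 were also called lower on captured sites, where 23 of 163 bins were called (14.1%), 8 higher (4.91%) and 15 lower (9.2%). The total fell to 4 without B76 library 3, 6 without B76 library 4 and 6 without B50 library 3, and was 30 without B50 library 1 and 31 with DESeq2.

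**Figure D4:**
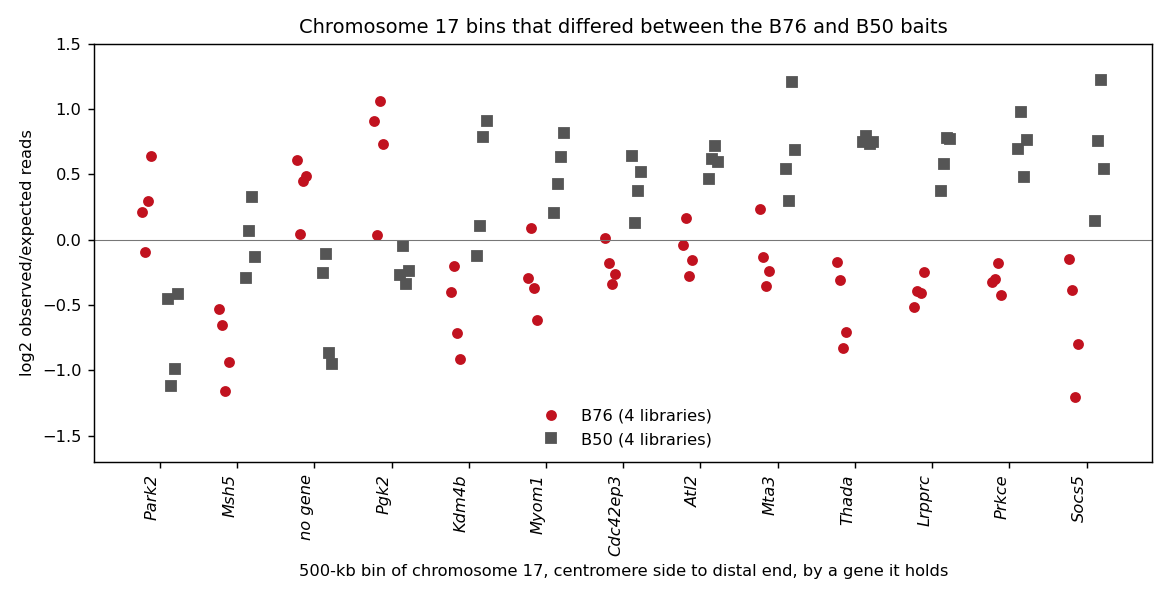
Log2 observed over expected reads in the 13 named chromosome 17 bins, in order along the chromosome and labelled by 1 gene each; red circles are the 4 B76 libraries and grey squares the 4 B50 libraries. The bins of Park2 and Pgk2 and a gene-free neighbour were higher for B76, and the other 10 lower. Only called bins with no overlap between the baits were open to naming.

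The 2 baits themselves, 26.3 Mb apart, met at about the level that distance gives. Read from B76, the 1-Mb window around B50 had 0.18, 0.25, 0.09 and 0.03 (log2 observed over expected captured sites, 0.14 ± 0.10, SD, n = 4). Read from B50, the window around B76 had 0.11, 0.03, -0.24 and -0.07 (-0.04 ± 0.15). All 4 B76 libraries were above 0 and 2 of the 4 B50 libraries, but for reads the means were 0.01 ± 0.24 from B76 and -0.25 ± 0.39 from B50, so neither end showed a contact larger than its spread in both units.

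The share of far reads that stayed on chromosome 17 did not separate the baits. Of reads more than 2 Mb from the bait, 83.7%, 68.0%, 73.8% and 62.9% were on chromosome 17 in B76 libraries, against 84.5%, 66.0%, 61.4% and 56.3% in B50 libraries. The difference was 5.03 percentage points (72.1% ± 8.91 for B76 and 67.1% ± 12.3 for B50, SD, n = 4 each, two-sided exact permutation p = 0.486). In captured sites the shares were 66.0%, 42.8%, 54.5% and 41.4% for B76, and 67.4%, 41.5%, 42.9% and 35.4% for B50. At both baits library 1 was highest.

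Contacts with other chromosomes were sparse. They took 12.4%, 25.1%, 16.9% and 24.2% of reads and reached 0.670%, 1.81%, 1.18% and 2.06% of the trans HindIII sites. Of 43673 trans sites read in at least 1 B76 library, 40 were read in 3 and 5 in all 4. At 2 of the 5 (chromosome 11, positions 3032987 and 3064539), 89 and 92 of the 101 libraries of other baits also had reads, so they are no mark of B76. The other 3 were at chromosome 15, 36103791 (2, 2, 58 and 24 reads), chromosome 1, 195369271 (3, 2, 5 and 3 reads), and chromosome 12, 58255935 (5, 4, 3 and 1 reads), read in 10, 5 and 0 of these 101 libraries.

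Chromosomes 19, 10, 15 and 11 were captured most and X and 14 least, at both baits. Captured sites per HindIII site, relative to all other chromosomes, were 1.69, 1.70, 1.72 and 1.67 for chromosome 19 in B76 libraries, against 1.79, 1.81, 2.00 and 1.95 in B50 libraries. For X they were 0.625, 0.529, 0.540 and 0.553, against 0.451, 0.518, 0.436 and 0.445 in B50 libraries. Chromosome 10 averaged 1.38 ± 0.05 for B76 and 1.32 ± 0.07 for B50, and chromosome 15 averaged 1.37 ± 0.05 and 1.45 ± 0.06 (SD, n = 4 each, B76 first). Chromosomes 3 (1.10 for B76, 1.01 for B50), 6 (1.15 and 1.06) and X (0.562 and 0.463) were higher for B76 in all 4 libraries than in any of B50, and chromosomes 14 (0.625 and 0.693) and 19 (1.70 and 1.89) lower. Each of these 5 had an exact permutation p of 0.0286, the smallest that 4 against 4 can give, and an adjusted p of 0.109 over 19 chromosomes, so that 0 of 19 passed.

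**Figure D5:**
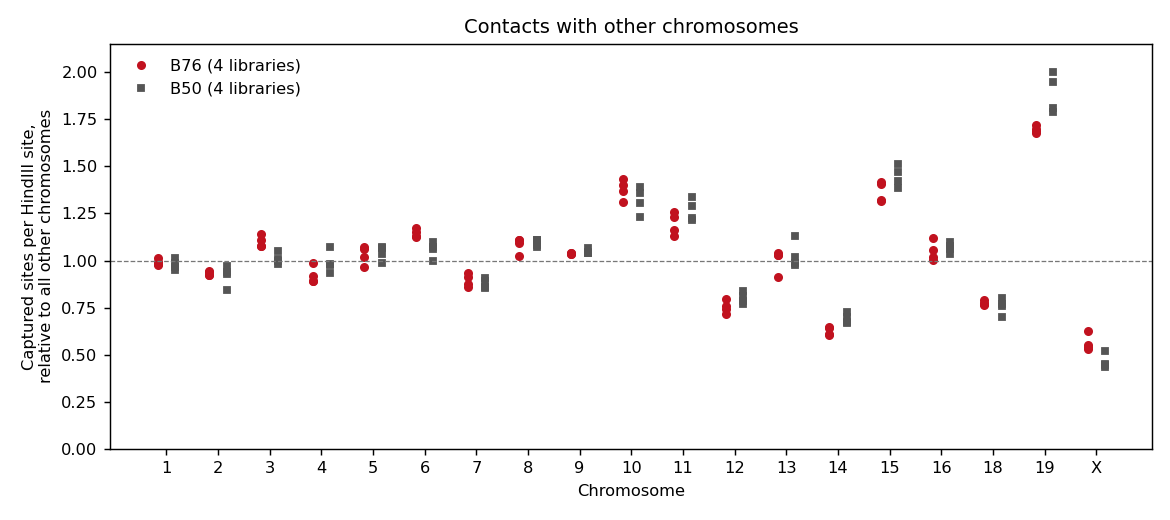
Captured sites per HindIII site on each other chromosome relative to all of them; red circles are the 4 B76 libraries and grey squares the 4 B50 libraries, and the dashed line marks equal capture. Chromosome 19 averaged 1.70 for B76 and 1.89 for B50, and X averaged 0.562 for B76 and 0.463 for B50.

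Among 2-Mb bins of other chromosomes captured in all 4 libraries, the 10 with most captured sites per HindIII site were led by chromosome 11, 2000001 to 4000000, with Osbp2, Drg1 and Limk2, a kinase that acts on cofilin. It had 4.50, 2.96, 3.68 and 3.26 times the average and holds both recurrent chromosome 11 sites just named. The second was chromosome 15, 102000001 to 104000000, with Cbx5, the gene of the heterochromatin protein HP1 alpha, at 2.72, 2.90, 1.93 and 2.66 times. Of the 10, 5 were on chromosome 10 and 2 on chromosome 15, and 9 ended within 20 Mb of the distal end. Of all 1147 bins captured in 4 of 4 libraries and open to this ranking, 62 were on chromosome 10, 50 on chromosome 15 and 193 (16.8%) within 20 Mb of a distal end. On chromosome 10, the bin of Slc16a7 and Lrig3 (124000001 to 126000000) had 2.58, 2.39, 2.56 and 2.03 times, and the bin of Frs2 and Cpm (116000001 to 118000000) had 2.32, 2.23, 2.10 and 2.26 times. The first of these 2 bins is also 1 of those called between the baits on captured sites, given last. Capture of 1181 trans bins correlated with GC content at a Spearman rho of 0.06, 0.21, 0.24 and 0.16 in B76 libraries, and at 0.04, 0.31, 0.60 and 0.60 in B50 libraries; the bins share the depth of a library and the values carry no test.

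No trans region was told apart between the baits on reads. Of 1209 tested 2-Mb bins, 0 differed between B76 and B50 (0%, edgeR's quasi-likelihood test, adjusted p of 0.05 or less), 60 had an unadjusted p of 0.05 or less, and DESeq2 also called 0. In simulated counts of this size and spread, 49.0% of bins changed 4-fold and 5.49% of those changed 2-fold were called, so differences of 2-fold were mostly not detectable. On captured sites 4 of 895 bins passed (0.447%, edgeR adjusted p of 0.05 or less): chromosome 3, 154000001, and chromosome 10, 124000001, higher for B76, and chromosome 14, 26000001, and chromosome 19, 4000001, lower. For the first, B76 libraries 1 to 4 had 7, 23, 13 and 21 captured sites, against 1, 14, 8 and 18 in the B50 libraries, before scaling for library totals (log2 fold change 1.14, SE 0.29, adjusted p = 0.0422).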

How the data were processed

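Per the labels' protocols, crosslinked C127 nuclei were cut with HindIII, ligated, cut with DpnII, circularised, amplified from the bait and sequenced. The authors deposited 1 table of raw read counts per HindIII site for 109 libraries. BWA 0.5.9 and build mm9 are named per the submitters' processing notes. Members and lists were chosen with earlier results of these data known, and the bait read, not the title, set the groups. Libraries were numbered in title order within the bait read.

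Captured sites stand beside reads because PCR reads without molecular identifiers are not independent molecules. A readable site had a read in at least 1 of the 101 libraries outside the 2 chromosome 17 baits. Expected contacts came from a lowess curve (span 0.5) on log distance over both sides of the bait, with a pseudocount of 0.5, and captured sites were thinned in 10 draws. Bins needed 50 readable sites, or 200 on other chromosomes. Read counts in 500-kb (chromosome 17) and 2-Mb bins were tested with edgeR 4.0.16 (R 4.3.3), quasi-likelihood, Benjamini-Hochberg over all bins, with DESeq2 1.42.0 as an alternative. Trans bins within 2 Mb of any bait were left out. Other tests were two-sided exact permutations (scipy 1.17.1, Python 3.11.15). The fits were tested on simulated data: 93.8% of 2-fold changed chromosome 17 bins were called, and 0.752% of unchanged ones.

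Named were protein-coding genes within 1 Mb, the 5 highest 100-kb bins, the 10 highest and 5 lowest profile bins of the same sign in 4 of 4 libraries and 1 Mb apart, up to 10 called bins per direction without overlap, the 10 highest trans bins, up to 10 sites read in all 4 libraries, and 31 listed genes. Gene positions are those of the mm9 annotation given. A bin and a listed gene that the naming rule takes are not reported here.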

Additional observations from a re-analysis of the deposited data

Results flagged for a closer look

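In B76 library 1, chromosome 8 had 1.02 captured sites per HindIII site relative to all other chromosomes, against 1.11, 1.11 and 1.09 in libraries 2 to 4, and so lay far from the other 3. Chromosome 13 had 0.914 in the same library, against 1.03, 1.04 and 1.03 in libraries 2 to 4. The gap to the nearest library was 0.844 and 0.913 of the range of the 4. Chance alone puts about 1 in 20 such groups of 4 past the limit used, and 19 chromosomes were looked at for each bait. Library 1 also had the fewest captured trans sites, 5322, and its part in this was not tested.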

How the results depend on the processing

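No paired analysis was possible because every library was titled replicate 1 and the titles did not name the bait that was read. Each B76 column stands just before a B50 column in the table. Such neighbours went together in depth, with 203016 and 289399, 185000 and 283213, 1061114 and 1265421, and 914363 and 1598251 reads (B76 first). Whether they share a culture is not known, and table order was not used to pair them. The 4 B76 libraries were the same with windows of 50 kb and 500 kb and by captured sites. The count of chromosome 17 bins that differed between B76 and B50 moved most: 17 in the report, 31 with DESeq2, and 4 to 30 when 1 library was left out (4 without B76 library 3, 6 without B76 library 4, 6 without B50 library 3, 30 without B50 library 1). Trans bins called were 0 with reads under every alternative run, and 4 on captured sites. The contact between the baits averaged 0.0087 from B76 and -0.25 from B50 on reads. For all of these the cause was not tested. Leaving out 1 library gave a range of -0.58 to -0.32 for the GC difference, -0.39 to -0.15 for the gene difference, 1.17 to 10.8 percentage points for the far share, 56.6% to 62.6% for the downstream share, 0.16 to 0.38 for the mean profile correlation, 0.10 to 0.17 for the contact read from B76 and -0.09 to 0.02 for that read from B50. The GC difference was -0.11 per HindIII site and -0.16 with no site correction. Both of these settings, and reads for the contact between baits, were chosen after seeing the data. Among the main results, descriptive ones included, 94 values stayed within the spread or count limit and 8 moved. The GC difference per HindIII site was counted as unmoved, though there the mean B76 correlation went from -0.16 to 0.29. The GC, gene and far-share differences kept their sign in all settings run, but the mean contact read from B50, smaller than its spread, was above 0 (0.02) without B50 library 3. Trans contacts were sparse, with 0.670% to 2.06% of trans sites captured per B76 library, and the part of depth was not tested.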
